A study of Mus musculus with 2 samples.

Results

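The regions described here are 320 windows of 10 kb that had at least 4 times the signal in 2C::tomato+ mouse embryonic stem (ES) cells and that lay apart from all other such windows. They were picked from 46012 autosomal windows compared, so they made up 0.695% of them. Coverage was summed in every 10 kb window of the mouse build mm9 and divided by the alignment length of 72 bases, which gives read equivalents, the number of alignments that would supply the coverage. A window was kept if both libraries together had at least 20 read equivalents there and if the ratio of 2C::tomato+ to 2C::tomato- was 4 or more. Each library was scaled to its own total for this ratio, and 0.5 was added to both values. It also had to have no other such window within 100 kb on its chromosome, measured from start to start. The X, Y and mitochondrial chromosomes and unplaced sequence were left out. The ratio itself chose the windows, so their ratios are a description and carry no test.

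The study sequenced mRNA from ES cells with the 2C::tomato reporter after a sort by flow cytometry. There were 2 libraries, 1 from the 2C::tomato+ population and 1 from the 2C::tomato- population. Both populations were of mixed strain and carried the same further alleles, Kdm1a FL/FL with CreERT, where Kdm1a is the gene of the histone demethylase LSD1. Both were grown on gelatin in a medium with hygromycin. The labels give no count of cultures or clones, so nothing says how far the cells of a sort stand for others. The 2C::tomato+ library held 37059813 alignments and the 2C::tomato- library 33833215. With 1 library for each population nothing here is checked by a replicate, and all intervals are 95% intervals of counting error only. No mm9 annotation was used, so windows are given by position alone, and markers of ES cells or of 2-cell embryos were not analysed here.

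Expression of 2C::tomato is under the control of regulatory sequence from MuERV-L, an endogenous retrovirus that is transcribed in the mouse embryo at the 2-cell stage and in a small part of the cells of an ES culture. Long terminal repeats of this family can act as promoters of the sequence beside them, and genes of the 2-cell stage often stand in clusters of near-identical copies. In mRNA sequencing an exon shows as a covered block, and blocks of a spliced transcript are separated by stretches with few reads. Reads of near-identical copies match several places at once. In these tracks they were listed at each place, so alignments there are not separate reads.

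Most of the 320 windows held a small signal in 2C::tomato+ cells and almost none in 2C::tomato- cells. Their read equivalents had a median of 27 in the 2C::tomato+ library, with quartiles of 21.2 and 43 and a range of 17 to 632. In the 2C::tomato- library the median was 3, with quartiles of 1 and 5 and a range of 0 to 61. The 2C::tomato- library had no signal in 69 of the windows, under 5 read equivalents in 236 and at least 10 in only 20. Together the windows held 14316.6 read equivalents in the 2C::tomato+ library (14083.4 to 14553.5) and 1213.12 in the 2C::tomato- library (1145.69 to 1283.23). The ratio of these sums was 10.8 (10.2 to 11.4). They took up 0.0386% of the 2C::tomato+ track and 0.00359% of the 2C::tomato- track. In sorted populations measured in bulk, more cells with a transcript and more of it per cell cannot be told apart.

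**Figure D1:**
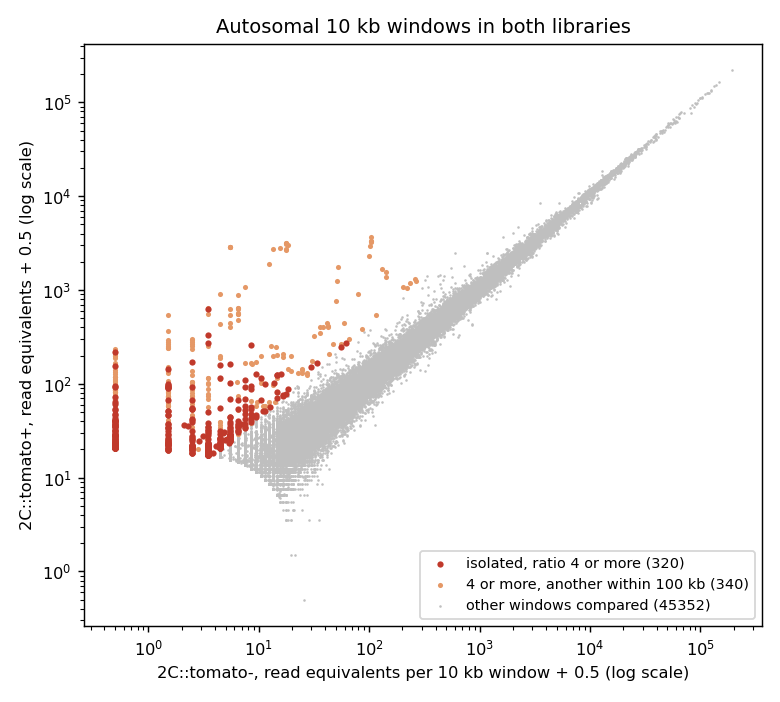
Read equivalents per 10 kb window (0.5 added, both axes on log scales), with the 2C::tomato+ library on the vertical axis and the 2C::tomato- library on the horizontal axis. Red points are the 320 isolated windows, orange points the 340 other windows past the same ratio and grey points the remaining 45352 windows compared. The isolated windows sit at the thinly covered lower left, and most of the points with a high 2C::tomato+ signal above the diagonal are orange.

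The whole set of windows at 4-fold or more numbered 660 (1.43% of those compared), and the isolated ones were 48.5% of them. The other 340 had another such window within 100 kb and are called clustered below. The isolated windows held 11.5% of the 2C::tomato+ signal of all 660. This is a share of alignments and not of separate reads, since a read listed at several places is counted at each. Stretches that recur elsewhere were found in 67.6% of clustered windows and in 16.9% of isolated ones. Clustered windows summed to 110523 read equivalents in the 2C::tomato+ library and 4300.83 in the 2C::tomato- library. In the opposite direction, 24 windows had a ratio of 0.25 or less (0.0522%), and all 24 were isolated by the same rule.

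Depth set how firmly a ratio could be read. Of the 320 windows, 246 held 20 to 49 read equivalents in both libraries together, 66 held 50 to under 200 and 8 held 200 or more. They made up 2.38% of the 10357 windows compared at 20 to 49, 0.480% of 13744 at 50 to under 200 and 0.0365% of 21911 at 200 or more. All 24 windows with a ratio of 0.25 or less were in the thinnest class, where they were 0.232% of those compared. The median ratio over all windows compared was 1.17 at 20 to 49 read equivalents, 1.07 at 50 to under 200 and 0.994 at 200 or more. Thin windows picked for a high ratio have ratios that are biased upward. The lower end of the interval of the ratio was at least 2 in 234 windows and at least 4 in 125. It was at least 1 in all 320, which the rule's minimum of 20 and ratio of 4 fixed in advance.

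Ratios spread widely above the threshold. There were 90 windows with a ratio of 4 to 5, 77 from 5 to 8, 55 from 8 to 20 and 98 of 20 or more, and the median was 7.76. With 3 counts in place of 0 where 2C::tomato- cells had no signal, 108 windows were from 5 to 8, 88 from 8 to 20 and 34 at 20 or more, and the median was 6.75. The windows just inside the threshold included chr1:16580001-16590000 (4.01), chr17:7210001-7220000 (4.02) and chr16:89840001-89850000 (4.03). For chr17:7210001-7220000 the direction turned, to 0.988, when the window was widened by 10 kb on both sides. Just outside it, chr14:63220001-63230000, chr8:80220001-80230000, chr1:176130001-176140000 and chr1:181940001-181950000 each had 41 read equivalents in the 2C::tomato+ library and 9 in the 2C::tomato- library, a ratio of 3.99.

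The most deeply covered of the isolated windows was chr7:110560001-110570000. It had 632 read equivalents in the 2C::tomato+ library and 3 in the 2C::tomato- library, a ratio of 165 (65.5 to 935). A block of 1921 bases, from 110566036 to 110567956, was the widest in any of the 320 windows and held 80.7% of the 2C::tomato+ signal. Of its 15 blocks, 4 had at least 10 reads. Within 50 kb on either side the libraries had only 13 and 7 read equivalents outside the window, in 2C::tomato+ and 2C::tomato- cells.

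Chromosome 7 held another window of this kind. At chr7:115670001-115680000 there were 273 read equivalents in the 2C::tomato+ library and 3 in the 2C::tomato- library, a ratio of 71.3 (28.1 to 405). Its signal was spread over 8 blocks, of which 6 had at least 10 reads. The windows at 110560001 and 115670001 share repeated stretches with each other, and with 6 and 4 clustered windows of the chromosome. Between 110560001 and 115670001 lay chr7:111800001-111810000, with 142 read equivalents in 2C::tomato+ cells and 1 in 2C::tomato- cells, a ratio of 86.7 (22.9 to 5156). It too shares a repeated stretch with 3 clustered windows of the chromosome. All 3 also share stretches with the windows at 110560001 and 115670001. Without repeated stretches its ratio was 74.6. A further isolated window, chr4:143950001-143960000, had 333 and 3 read equivalents in 2C::tomato+ and 2C::tomato- cells, a ratio of 87.0 (34.4 to 494). It shares stretches with 9 clustered windows of chromosome 4, the nearest 400 kb away.

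Some windows had no or almost no signal in 2C::tomato- cells although the surrounding chromosome was covered in both populations. At chr3:92870001-92880000 the 2C::tomato+ library had 218.4 read equivalents and the 2C::tomato- library had 0. With 3 counts in place of 0 the signal was 66.5-fold higher in 2C::tomato+ cells, a value that leaves out the counting error of the 2C::tomato+ library. The block from 92877411 to 92878915, 1505 bases wide, held 86.5% of that signal. The window shares repeated stretches with 2 clustered windows of chromosome 3. Without repeated stretches it had 168 alignments in 2C::tomato+ cells and 0 in 2C::tomato- cells. That was 51.1-fold higher, again with 3 counts in place of 0. The 50 kb on both sides had 3978 read equivalents in the 2C::tomato+ library and 3663 in the 2C::tomato- library, so the neighbourhood was at nearly the same level in both.

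At chr17:8530001-8540000 the 2C::tomato+ library had 157 read equivalents and the 2C::tomato- library 4, a ratio of 31.95 (13.7 to 133). This window had the largest covered length of all 320, with 3990 bases in 22 blocks, and its fullest block held only 22.9% of the signal. Near it both libraries were dense, with 17382 read equivalents in 2C::tomato+ cells and 15663 in 2C::tomato- cells within 50 kb. The window at chr8:89440001-89450000 had most blocks, 30, and held 127 read equivalents in 2C::tomato+ cells and 9 in 2C::tomato- cells, a ratio of 12.3 (6.58 to 28.8).

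Other windows stood alone in nearly empty chromosome. At chr16:9870001-9880000 there were 171 read equivalents in the 2C::tomato+ library and 2 in the 2C::tomato- library, a ratio of 62.6 (21.3 to 650). A block of 1070 bases held 86.0% of the signal, and the 50 kb on both sides had 1 read equivalent in each library. At chr14:83890001-83900000 the 2C::tomato+ library had 72 read equivalents and the 2C::tomato- library 0, at least 21.9-fold higher in 2C::tomato+ cells. The nearest other window at 4-fold was 13110 kb away.

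**Figure D2:**
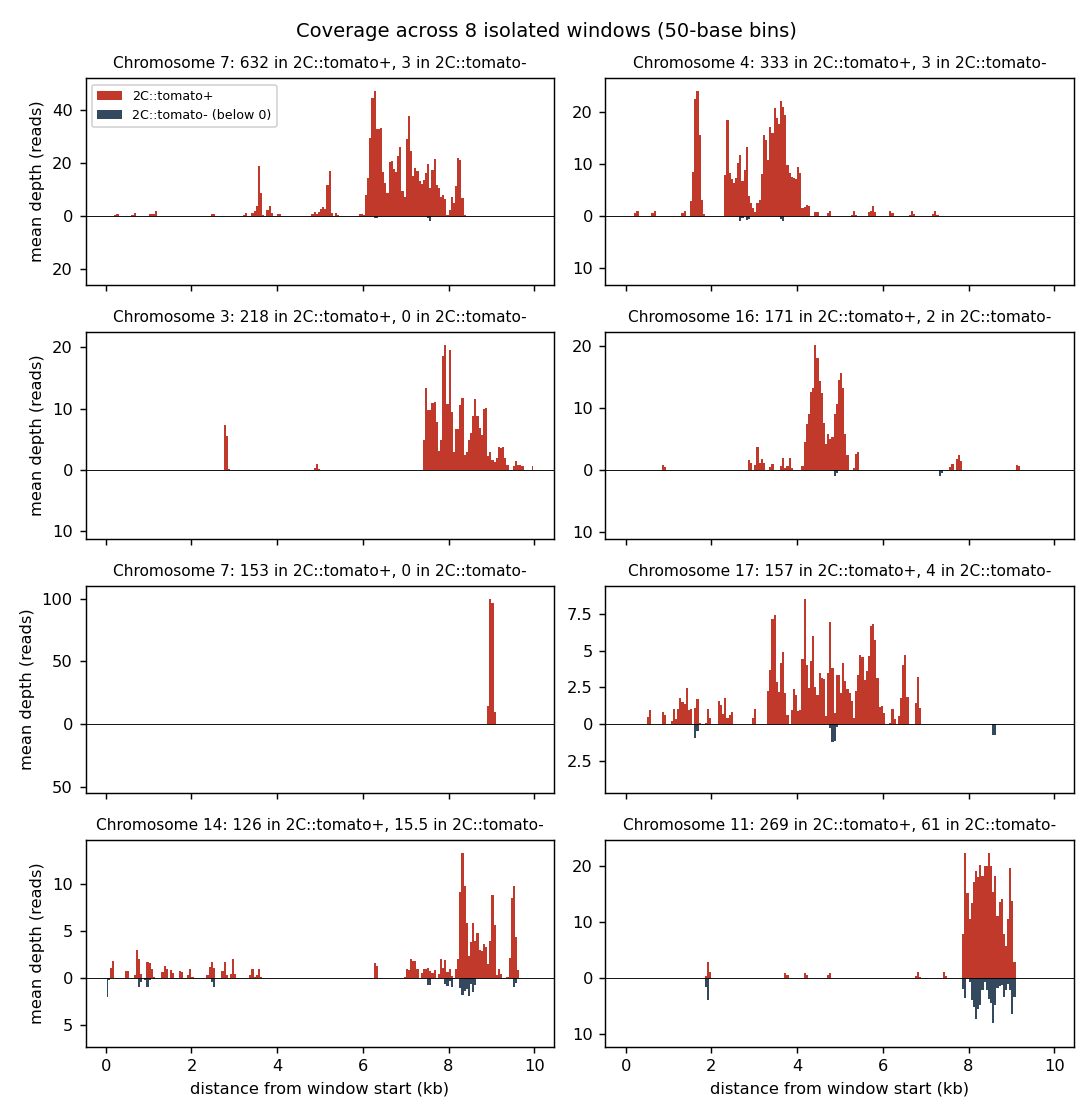
Mean depth in 50-base bins across 8 of the isolated windows, against the distance from the window start in kb, with the 2C::tomato+ library drawn up from 0 and the 2C::tomato- library drawn down. The vertical scale differs between panels. The 2C::tomato+ signal stands in a few separate blocks in most panels, in 1 block of 146 bases in the third row on the left, and 2C::tomato- signal can be seen over the same blocks in the bottom row.

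Windows near the threshold could also be well covered, with a clear signal in both populations. The window chr11:101520001-101530000 had 269 read equivalents in the 2C::tomato+ library and 61 in the 2C::tomato- library, a ratio of 4.001 (3.04 to 5.41) and the lowest of all 320. Its block from 101527860 to 101529085 held 97.03% of the 2C::tomato+ signal. At chr6:145810001-145820000 the 2C::tomato+ library had 247.8 read equivalents and the 2C::tomato- library 55, a ratio of 4.08 (3.06 to 5.62). The next window at 4-fold was 18400 kb away. At chr17:47530001-47540000 there were 152.1 read equivalents in 2C::tomato+ cells and 29 in 2C::tomato- cells, a ratio of 4.72 (3.20 to 7.39), beside neighbours that held 8394 in 2C::tomato+ cells and 8466 in 2C::tomato- cells within 50 kb. In the window widened by 10 kb on both sides, the ratio was 0.899, so there the direction turned.

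The window chr8:88220001-88230000 had 258 read equivalents in 2C::tomato+ cells and 8 in 2C::tomato- cells, a ratio of 27.8 (14.7 to 68.9). All 8 of its 2C::tomato- read equivalents lay in the block of 1018 bases that held 60.9% of its 2C::tomato+ signal. At chr9:62120001-62130000 the 2C::tomato+ library had 116 and the 2C::tomato- library 4, a ratio of 23.6 (10.1 to 98.8). The window chr10:117160001-117170000 had 114.6 and 10 in 2C::tomato+ and 2C::tomato- cells, a ratio of 10.01 (5.51 to 22.5). At chr15:102430001-102440000 there were 99 in 2C::tomato+ cells and 1.01 in 2C::tomato- cells, a ratio of 60.003 (15.9 to 3605). This ratio rests on about 1 read in 2C::tomato- cells, and it was 28.2 with each start position counted 1 time and 27.8 after widening by 10 kb on both sides.

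The signal of the isolated windows was usually spread over several short blocks. The median window had 10 covered blocks and 1078 covered bases, its widest block was 211 bases, and its fullest block held 35.9% of the 2C::tomato+ signal. At least 90% of the signal fell in 1 block in 25 windows (7.81%) and less than 25% in 104. A block with at least 10 reads was found in 166 windows, and 154 had none. At 20 to 49 read equivalents in both libraries together, the isolated windows had medians of 10 blocks, 978.5 covered bases and 30% of the signal in the fullest block. Clustered windows of that depth had 11 blocks, 1084 covered bases and 33.3%. Windows 2- to 4-fold higher in 2C::tomato+ cells, which were 3.9% of all compared, had medians of 8 blocks, 745 covered bases and 40%. Windows within 2-fold had 5 blocks, 515 covered bases and 50%. Blocks were counted on the 2C::tomato+ signal, whose median in these classes was 24 read equivalents in isolated windows, 27.1 in clustered ones, 21 at 2- to 4-fold and 17 within 2-fold. The choice of windows by their ratio therefore fixes part of this order. Windows are not replicates, and no test was made of these differences.

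**Figure D3:**
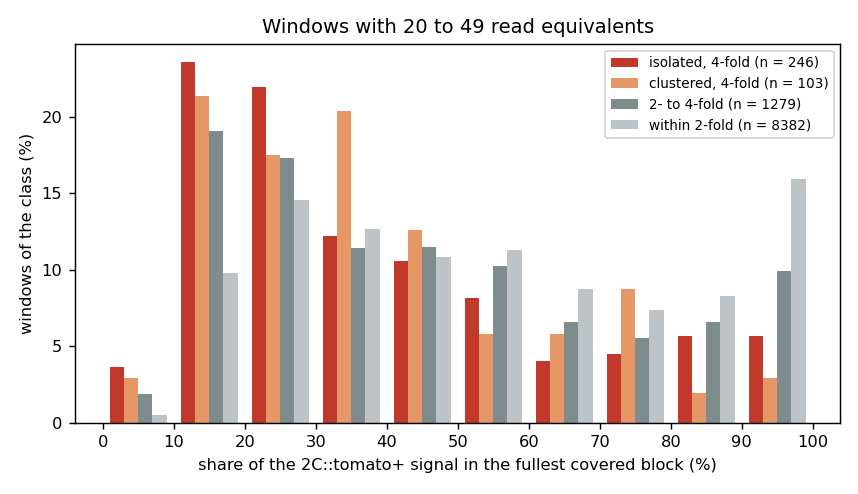
Share of the 2C::tomato+ signal of a window that lay in its fullest covered block (horizontal axis, in percent, in bins of 10) for windows with 20 to 49 read equivalents. Bars give the percent of the windows of each class, for 246 isolated, 103 clustered, 1279 windows at 2- to 4-fold and 8382 windows within 2-fold that have any 2C::tomato+ signal. The isolated windows have their highest bars in the bins from 10 to 30%, and the windows within 2-fold have their highest bar at 90 to 100%. The classes differ in 2C::tomato+ depth, with medians of 24, 27.1, 21 and 17 read equivalents in the order of the legend.

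The fullest blocks carried more of the difference than the rest of the same windows. Over all 320 windows the fullest blocks had 7420.32 read equivalents in the 2C::tomato+ library and 490 in the 2C::tomato- library, a ratio of 13.8. The remaining bases had 6896.31 and 723.125 in 2C::tomato+ and 2C::tomato- cells, a ratio of 8.71. In 197 windows the 2C::tomato- library had no signal in the fullest block. That block was defined by the 2C::tomato+ signal, so a higher ratio there follows in part from the definition, and no test was made.

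In 8 windows all 2C::tomato+ signal lay in 1 block. The largest was chr7:12560001-12570000, where a block of 146 bases from 12568924 to 12569069 held 153 read equivalents in 2C::tomato+ cells and 0 in 2C::tomato- cells. With 3 counts in place of 0 this was 46.6-fold higher, but 15.5-fold higher with each start position counted 1 time. Its alignments had distinct starts at 35.3%, against a median of 87.4% over all 320 windows. A narrow block has room for few start positions. In such blocks a low share of distinct starts, and a lower ratio with each start position counted 1 time, follow in part from the width. Duplicate reads were not told apart from this limit. The block of chr1:39570001-39580000 was 137 bases wide, and the window had 98 and 11 read equivalents in 2C::tomato+ and 2C::tomato- cells. Its ratio was 7.82 (4.35 to 16.8), but 2.29 with each start position counted 1 time. At chr4:4410001-4420000 a block of only 76 bases held 22 and 3 read equivalents in 2C::tomato+ and 2C::tomato- cells. There 45.5% of the 2C::tomato+ alignments started at the same base, and the ratio was 5.87 (2.01 to 34.9), but 1.90 with each start position counted 1 time.

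The remaining windows with 1 block were of the same narrow kind, apart from chr17:5150001-5160000. That window had 50 read equivalents in 2C::tomato+ cells and 3 in 2C::tomato- cells, a ratio of 13.2, in a block of 808 bases. There 94.3% of the alignments lay in stretches whose pattern of starts recurred up to 20 times, and none of these recurrences was in another window. The other 4, on chromosomes 12, 13, 14 and 17, had blocks of 87 to 180 bases and 20 to 56 read equivalents in 2C::tomato+ cells against 1 to 8 in 2C::tomato- cells. Across all 320 windows, 13 had at least 20% of their 2C::tomato+ alignments at the same start and 6 had distinct starts for less than 50% of them.

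Copies of a sequence elsewhere in the genome linked some of the isolated windows to each other and to clustered ones. A stretch was called repeated if its pattern of alignment starts in both libraries recurred elsewhere in either orientation. Such stretches were found in 54 of the isolated windows (16.9%). Thin coverage hides repeats, so shares are lower limits and are compared at like depth. At 20 to 49 read equivalents, 10.2% of isolated windows held a repeated stretch, against 29.1% of clustered windows, 6.10% of windows at 2- to 4-fold and 6.88% of windows within 2-fold. At 50 to under 200 the share was 36.4% in isolated windows, 77.4% in clustered ones, 11.6% at 2- to 4-fold and 12.2% within 2-fold. The isolated share stands for 24 windows, of which 9 are copies in a family on chromosome 7 and 3 are near-copies on chromosome 14. At 200 or more it was 62.5% of only 8 isolated windows, 95.6% of clustered ones, 59.1% at 2- to 4-fold and 25.6% within 2-fold. In each depth class the share was higher in isolated windows than within 2-fold and lower than in clustered windows, and no test was made. Of the 54, 41 shared a stretch with another window at 4-fold, 21 of them with a clustered window, and 13 shared none. Isolated windows that shared stretches with each other numbered 31 and fell into 9 families. Counting windows joined by a shared stretch as 1, the 320 windows came to 298 separate units. Families were picked out after their values were seen.

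The largest family lay on chromosome 7 between 21170001 and 24060000. It had 9 isolated windows, each with 89 to 97 read equivalents in the 2C::tomato+ library and 0 to 2 in the 2C::tomato- library. Their sums were 833.8 and 8 in 2C::tomato+ and 2C::tomato- cells, a ratio of 95.2, in which a read listed in several windows is counted in each. A further 12 clustered windows of the family, from 20840001 on, had 25.4 to 98 read equivalents in 2C::tomato+ cells and 0 to 1 in 2C::tomato- cells. Not all of these are separate copies, since at 21510000 and at 21970000 a fullest block ran across a window edge. Windows cut in this way lie side by side, so none of them could be isolated. Windows of the family were alike in shape, and fullest blocks of 678, 1094 and 1259 bases each recurred. Neighbouring isolated windows of this family had fullest blocks that started 131111 bases apart at 21178983 and 21310094, and 131103 bases apart at 23367760 and 23498863. The pairs at 22694469 and 22835457 and at 23917658 and 24058053 were 140988 and 140395 bases apart. All of these spacings are above the 100 kb of the rule, so copies of an array were counted as isolated windows. With repeated stretches left out, the 4 named windows of the family with any 2C::tomato- signal had ratios of 2.13 to 5.17. With all alignments 56.3 to 59.3 was found. The ratios of 2.13 to 5.17 rest on fewer alignments than the rule's minimum, with 1 in 2C::tomato- cells in each window. They therefore do not measure the difference outside the repeated stretches. The 2 named windows with no 2C::tomato- signal, at 21310001 and 22690001, were at least 2.43-fold and 2.13-fold higher without repeated stretches. These bounds rest on 8 and 7 alignments in 2C::tomato+ cells. With all alignments the 2 windows were at least 28.2-fold and 29.0-fold higher.

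On chromosome 14, 3 isolated windows were near-copies of each other. They had 126, 124 and 122.8 read equivalents in the 2C::tomato+ library and 15.5, 14 and 14 in the 2C::tomato- library, at chr14:26800001-26810000, chr14:26940001-26950000 and chr14:27080001-27090000. Their ratios were 7.22, 7.84 and 7.77. The fullest block was 955 bases wide in each, and these blocks were 139619 and 139649 bases apart. Here too the copies were spaced just above the 100 kb of the rule.

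A dispersed family had 7 isolated windows on 5 chromosomes. Each had 31 to 67 read equivalents in 2C::tomato+ cells and 4 to 10 in 2C::tomato- cells, with sums of 277 in 2C::tomato+ cells and 47 in 2C::tomato- cells and a ratio of 5.38. Narrow blocks of 112 and 213 bases recurred in them, and a block of 213 bases was the fullest in the windows that start at 96010001 on chromosome 3, at 92770001 and 100280001 on chromosome 4 and at 97640001 on chromosome 8. The same stretches also lay in windows that were not 4-fold higher. These included chr3:96000001-96010000, with 856 read equivalents in 2C::tomato+ cells and 463 in 2C::tomato- cells, a ratio of 1.69. Another was chr1:181940001-181950000, one of the windows just outside the threshold.

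**Figure D4:**
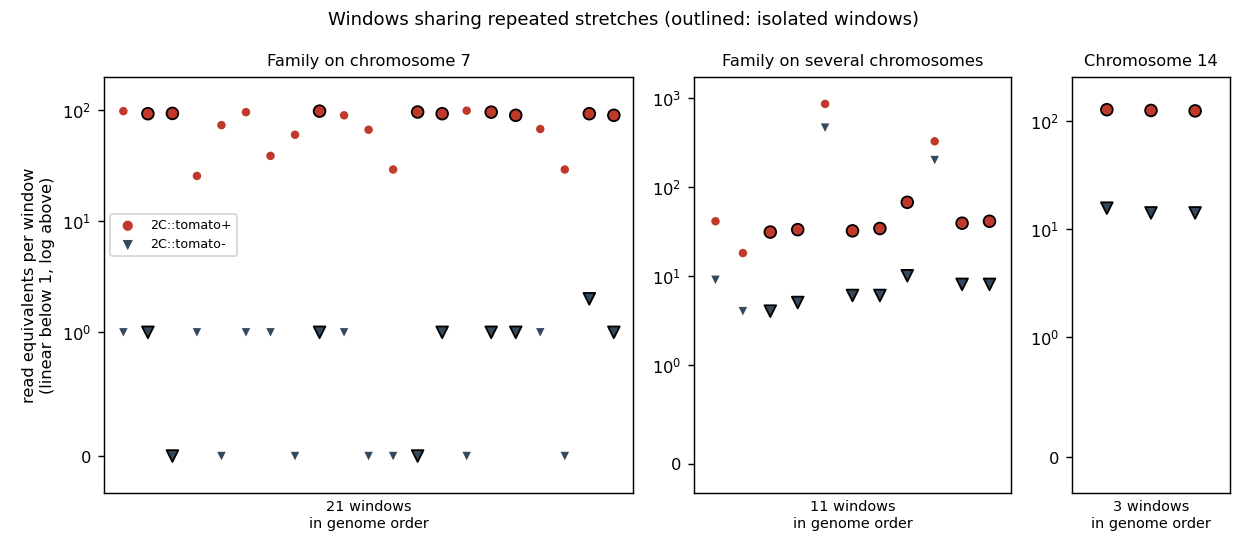
Read equivalents per window in 3 families of windows that share repeated stretches, in genome order (vertical axis linear below 1 and on a log scale above, with its own range in each panel). Red circles are the 2C::tomato+ library and dark triangles the 2C::tomato- library, and outlined symbols are the isolated windows. The isolated windows of chromosome 7 sit at 89 to 97 in 2C::tomato+ cells against 0 to 2 in 2C::tomato- cells, those of chromosome 14 at nearly the same values as each other, and the dispersed family includes windows with under 2-fold between the libraries.

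Smaller families were pairs. The 2 windows chr15:77250001-77260000 and chr15:77540001-77550000 had sums of 83 and 0 read equivalents in 2C::tomato+ and 2C::tomato- cells, and those of chr12:116360001-116370000 and chr12:116580001-116590000 were 59.9 in 2C::tomato+ cells and 0 in 2C::tomato- cells. The windows at 43410001 and 43600001 of chromosome 14 summed to 40.8 in 2C::tomato+ cells and 6 in 2C::tomato- cells. Among windows tied to clusters elsewhere, chr15:21880001-21890000 had 108 read equivalents in 2C::tomato+ cells and 7 in 2C::tomato- cells, a ratio of 13.2 (6.61 to 35.9). It shares stretches with 8 clustered windows, all on chromosome 13, and 89.6% of its alignments lay in them. Its ratio was 8.69 after widening. Without the shared stretches few alignments were left, none of them from 2C::tomato- cells. The value of 22.8 found there depends on the constant added to both values, so it does not show a rise from 13.2. At chr5:138160001-138170000 there were 164 and 5 in 2C::tomato+ and 2C::tomato- cells, a ratio of 27.3 (12.6 to 93.4), and it shares stretches with 3 clustered windows of chromosome 1 and with unplaced sequence. Its ratio was 14.4 without repeated stretches and 1.55 after widening by 10 kb on both sides. At chr11:87280001-87290000 there were 167 in 2C::tomato+ cells and 33 in 2C::tomato- cells, a ratio of 4.56 (3.17 to 6.93). Its stretches recur in 3 adjoining windows at 2- to 4-fold, and its ratio was 1.23 without them and 2.48 with each start position counted 1 time.

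Most of the isolated windows, 266, held no repeated stretch that this coverage could show. Without the 54 that did, the ratio of the sums was 9.15, and without the repeated stretches themselves it was 9.66. With each start position counted 1 time it was 9.56. Counted in that way, chr7:115670001-115680000 had a ratio of 43.3 and chr7:111800001-111810000 one of 56.2. Without repeated stretches the ratio of chr7:110560001-110570000 was 103.

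The median adjoining window held less signal and had a lower ratio, but adjoining windows held more signal in sum. Those upstream summed to 45836.9 read equivalents in 2C::tomato+ cells and 38748.5 in 2C::tomato- cells. Those downstream summed to 41005.6 in 2C::tomato+ cells and 34857.5 in 2C::tomato- cells. Only the isolated windows had to hold at least 20 read equivalents. In the adjoining windows, 10 kb upstream and downstream in coordinates, the medians were 5 and 7 read equivalents in 2C::tomato+ cells and 1.42 and 2 in 2C::tomato- cells. The median ratios there were 1.52 and 1.49, with the 0.5 added to both values, which draws the ratio of a nearly empty window toward 1. From 20 to 100 kb on either side the median ratio lay between 0.913 and 1.002, where 0.913 is the value of 2 empty windows. Isolation was judged on these same windows, so their values are a description. It bars a ratio of 4 or more only where a window has at least 20 read equivalents, which 101 and 99 of the 320 adjoining windows had. Around windows at 2- to 4-fold the median ratio of the adjoining windows was 1.21 and 1.23. A covered block reached an edge of the window in 61 of the 320. Summed over windows widened by 10 kb on both sides, the ratio was 1.23, and 155 of the 320 kept a ratio of 4 or more. Widening brought the ratio to 1.07 at chr3:92870001-92880000, 1.16 at chr8:89440001-89450000 and 1.46 at chr10:117160001-117170000, all beside dense neighbours. It was 33.1 after widening at chr4:143950001-143960000, 3.54 at chr17:8530001-8540000, 14.9 at chr9:62120001-62130000 and 89.7 at chr7:110560001-110570000. Among the windows nearest the threshold, it was 3.30 at chr11:101520001-101530000, 2.35 at chr1:16580001-16590000 and 1.60 at chr16:89840001-89850000. In the 3 near-copies on chromosome 14 it was 4.72 to 4.76. The grid mattered too, since with windows shifted by 5 kb the rule found 311 windows, which overlapped 169 of the 320.

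**Figure D5:**
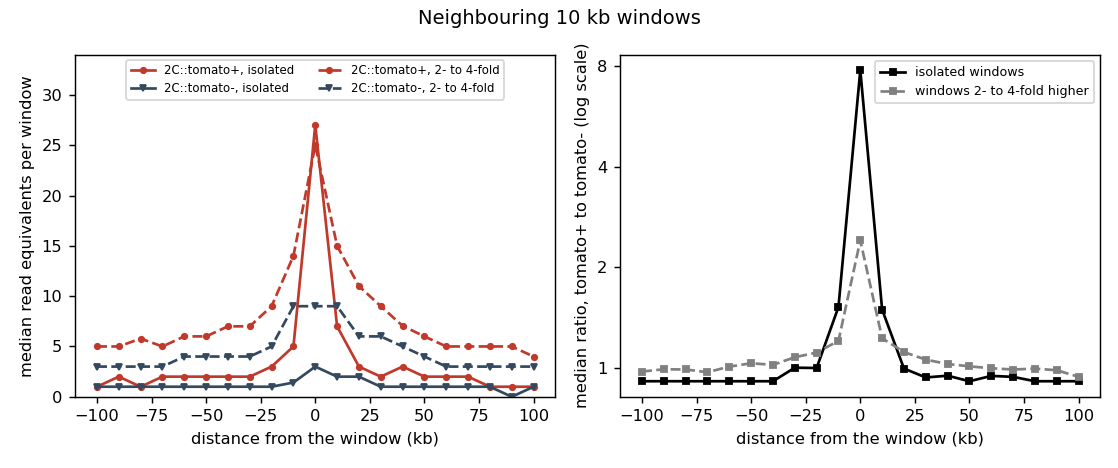
Median read equivalents (left) and median ratio of 2C::tomato+ to 2C::tomato- (right, log scale) in windows at 10 to 100 kb on both sides of the 320 isolated windows (solid lines) and of the 1794 windows at 2- to 4-fold (dashed lines). The horizontal axis is the distance from the window in kb, red lines are the 2C::tomato+ library and dark lines the 2C::tomato- library. The isolated windows have a median ratio of 7.76 (0.5 added to both values), their adjoining windows about 1.5, and windows further out about 1.

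The wider surroundings of most isolated windows were at like levels in both populations. In 278 of them the 100 kb around the window, without the window itself, held at least 20 read equivalents in both libraries together. The median ratio of these surroundings was 1.08, with 245 within 2-fold, 32 at 2 or more and 1 at 0.5 or less. Among the 32, chr11:53910001-53920000 had 70 read equivalents in 2C::tomato+ cells and 14 in 2C::tomato- cells, and its surroundings had 296 in 2C::tomato+ cells and 123 in 2C::tomato- cells. It was singled out after its values were seen.

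Thin surroundings went with higher ratios. The 42 windows with under 20 read equivalents around them summed to 1638.6 read equivalents in the 2C::tomato+ library and 73 in the 2C::tomato- library, a ratio of 20.5 (16.2 to 26.3). The 148 with at least 20 but under 1000 around them had a ratio of 12.6 (11.4 to 13.8). The 130 with 1000 or more had sums of 6120.7 and 663.2 in 2C::tomato+ and 2C::tomato- cells, a ratio of 8.43 (7.78 to 9.15). The 2C::tomato- library had no signal in 18 of the 42 windows in thin surroundings, 29 of the 148 and 22 of the 130. The ratio itself chose these windows, and the intervals leave out the spread between windows, so this order is a description. The part of the surroundings in the ratio was not tested.

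The isolated windows lay on all 19 autosomes. Chromosome 7 had most, 35 of 3260 windows compared (1.07%), 9 of them in the family between 21170001 and 24060000. Chromosome 4 followed with 28 of 3275 (0.855%) and chromosome 1 with 25 of 2973 (0.841%). Chromosome 14 had 20 of 1858 (1.08%), of which 3 were the near-copies given above. Chromosomes 17 and 11 had the lowest shares, with 9 of 2203 (0.409%) and 15 of 3376 (0.444%). On chromosomes 9 and 15 all windows at 4-fold were isolated, 17 and 12 of them. On chromosome 5, which had 90 windows at 4-fold, only 17 were. Distances to the nearest other window at 4-fold had a median of 1675 kb and ran from 110 to 37410 kb, with 24 windows at 200 kb or less and 201 at 1000 kb or more.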

How the data were processed

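The authors deposited 1 coverage signal track per library, with the number of aligned reads over each base and no scaling to depth. Per the submitters' processing notes Bowtie and the build mm9 were used, and per the file headers the tracks were made from sorted BAM files. Bowtie's version and settings, and any filter, are not stated in the sources used here. Both tracks could be decoded exactly into ungapped alignments of 72 bases, so reads across splice junctions are not in them. Strand is not kept.

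Window sums, covered blocks, start positions and repeated stretches were computed from the tracks with Python 3.11.15, NumPy 2.4.6, pandas 2.3.3 and SciPy 1.17.1. Start positions, sums, isolation, ratio intervals and the search for repeated stretches were tested on simulated data. The covered blocks were not tested in this way. A repeated stretch was 64 bases with at least 8 start positions and 20 starts, or 300 bases with at least 10 of each, whose pattern of starts recurred. Intervals of a ratio are exact conditional binomial (Clopper-Pearson) and those of a sum exact Poisson, at 95%. The reads carry no molecular identifiers and so need not be independent molecules, and reads listed at several places narrow intervals further. Against 0, a ratio uses 3 counts over the window in place of 0. Such a ratio leaves out the counting error of the 2C::tomato+ library, so the lower end of its 95% interval is lower.

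The windows named are the 20 most covered, the 10 further ones with the highest lower bound of the ratio, the most covered on each autosome, those nearest the threshold on both sides and those at the extremes of each block measure. Other windows and the families were picked after their values were seen. The windows, rules and classes were chosen with earlier results of these data known. No sequence, gene or transcript is given, since the genome and annotation at hand are of another build. Alternative signals, scalings, minimums, window grids and isolation distances were tried.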

Additional observations from a re-analysis of the deposited data

How the results depend on the processing

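The rule found 320 isolated windows as reported. It found 798 with a minimum of 10 read equivalents, 91 with a minimum of 50, 166 at 8-fold and 141 with the lower bound of the interval at 4 or more, and between 245 and 349 under the other alternatives. The count hides which windows were found. With the window grid shifted by 5 kb the rule found 311 windows, which overlapped only 169 of the 320, and with windows of 20 kb it found 317, which overlapped 194. With each start position counted 1 time, 263 of the 320 kept a ratio of 4 or more.

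The ratio of the sums was 10.8 as reported, 9.56 with each start position counted 1 time, 12.1 in windows with 50 or more read equivalents, 9.66 with repeated stretches left out, 9.15 in windows without such a stretch and 1.23 with the windows widened by 10 kb on both sides. After widening, 155 of the 320 windows kept a ratio of 4 or more. It was 10.3 without the most covered window, chr7:110560001-110570000. Of the 46 windows named by rule, 27 kept a ratio of 4 or more after widening, 35 with start positions counted 1 time and 38 without repeated stretches. The 38 include windows with few alignments left. Those at 73060001 on chromosome 4 and at 21310001 and 22690001 on chromosome 7 kept 13, 8 and 7 in 2C::tomato+ cells. They had 0 in 2C::tomato- cells. With 3 counts in place of 0 they were 3.96-fold, 2.43-fold and 2.13-fold higher, all under 4. The direction turned after widening in chr17:7210001-7220000, to 0.988, and in chr17:47530001-47540000, to 0.899. The causes were not tested.

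Isolation measured between window edges, the removal of 64-base repeats alone and the counts by edge, repeat and fullest block were chosen after seeing the data. Isolated windows with 20 to 49 read equivalents make up 246 of the 320, so single ratios there are wide. No paired analysis was possible because there is only 1 library on each side.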
